A study of Mus musculus with 12 samples.

Results

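The genes described here are 10 receptors and effectors of late neutrophils, taken by symbol from a table of 53465 genes measured by RNA-seq in bone marrow LSKs (Lin- Sca-1+ c-Kit+ cells, the fraction that holds stem cells and early progenitors). They are the receptors Cxcr2, Fpr1 and Ltb4r1, the secreted proteins Chil3, Retnlg, Pglyrp1 and Olfm4, the enzymes Padi4 and Mmp25, and G0s2. The 12 libraries form 4 groups of 3: LSKs of untreated Tespa1+/+ littermates, of untreated Tespa1-/- mice, and of each genotype at day 9 after an injection of 5-fluorouracil (5-FU), a drug that kills cycling cells. Mice were male, 8 to 10 weeks old and on a C57BL/6 background. Tespa1-/- mice (B6.129S-Tespa1tm1Smoc) carry the mutation in every cell, so genotype and the state of the rest of the marrow were not separated. Cells were gated with a lineage cocktail against CD3e, CD11b, Gr-1, B220 and Ter-119, and how many mice gave each library was not stated in the sources used here, so p-values measure the spread between libraries only.

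Neutrophils arise in bone marrow from granulocyte progenitors through promyelocyte, myelocyte and band stages, and they switch on granule proteins and receptors in that order. Primary granule proteases come early, secondary granule proteins come at the myelocyte stage, and chemotactic receptors with the machinery of the mature cell come last. The receptors answer to chemokines, to formylated bacterial peptides and to leukotriene B4, and the effectors act on bacterial walls, matrix and chromatin. The 10 genes are known as genes of maturing neutrophils.

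In GRCm38 the receptor genes are Cxcr2 (ENSMUSG00000026180) at chr1:74153989-74161246, Fpr1 (ENSMUSG00000045551) at chr17:17876471-17883940 and Ltb4r1 (ENSMUSG00000046908) at chr14:55765962-55768494. The secreted proteins come from Chil3 (ENSMUSG00000040809) at chr3:106147554-106167564, Retnlg (ENSMUSG00000022651) at chr16:48872608-48874498, Pglyrp1 (ENSMUSG00000030413) at chr7:18871331-18890459 and Olfm4 (ENSMUSG00000022026) at chr14:79984081-80023139. The remaining genes are Padi4 (ENSMUSG00000025330) at chr4:140745865-140774236, Mmp25 (ENSMUSG00000023903) at chr17:23629458-23645269 and G0s2 (ENSMUSG00000009633) at chr1:193272161-193273217. Values are sums over the reads of a whole gene.

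Library totals were 22118154 to 28275079 counts. Levels are given in CPM, counts scaled to a common library total. A gene counted as detected in a library from 3 counts, which is 0.109 to 0.136 CPM and allows for counting error only. Tespa1 itself was at 43.1 to 57.2 CPM in the Tespa1+/+ libraries, at 34.5 to 34.9 CPM in untreated Tespa1-/- and at 17.2 to 20.7 CPM in Tespa1-/- after 5-FU, so its reads were lower but not absent. All 7 stem and progenitor markers, among them Kit, Cd34 and Flt3, had counts in each group. Untreated Tespa1-/- libraries stood apart at the low end. They held 5518 to 7030 genes with 1 to 3 counts, against 2470 to 4309 in the other libraries. Values of a few counts in them are therefore weak evidence of expression. They also differed less from each other, with a median chi-square over genes of 2.1 to 2.48 between pairs, against 4.29 to 6.12 in the other groups. Why this group differs was not tested, and comparisons that use it carry this difference.

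After 5-FU, 8 of the 10 genes were higher in Tespa1-/- LSKs than in Tespa1+/+ LSKs, Padi4 was lower, and Cxcr2 did not pass the test. A call needed a change of over 1.5-fold together with an adjusted p under 0.05 (Benjamini-Hochberg) in edgeR's quasi-likelihood test. By that rule 6.98% of the 17239 genes tested were called, 3.95% higher and 3.03% lower. All 10 genes passed the filter on low counts, but 6 of them (Retnlg, G0s2, Fpr1, Chil3, Mmp25 and Olfm4) reached 10 counts in every library only in Tespa1-/- after 5-FU, so neither their calls nor their lack of overlap is support in itself. Pglyrp1, Ltb4r1, Padi4 and Cxcr2 reached it in both groups. The 10 genes were chosen with earlier results of these data known, so their counts beside the shares of all genes are a description and no support. In 9 of the 10 genes the libraries of the 2 genotypes did not overlap, 8 of them higher and 1 lower, against 33.1% of all genes tested (17.2% higher and 15.9% lower). In a bulk sample, fewer cells that express a gene and less RNA of it in each cell cannot be told apart.

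**Figure D1:**
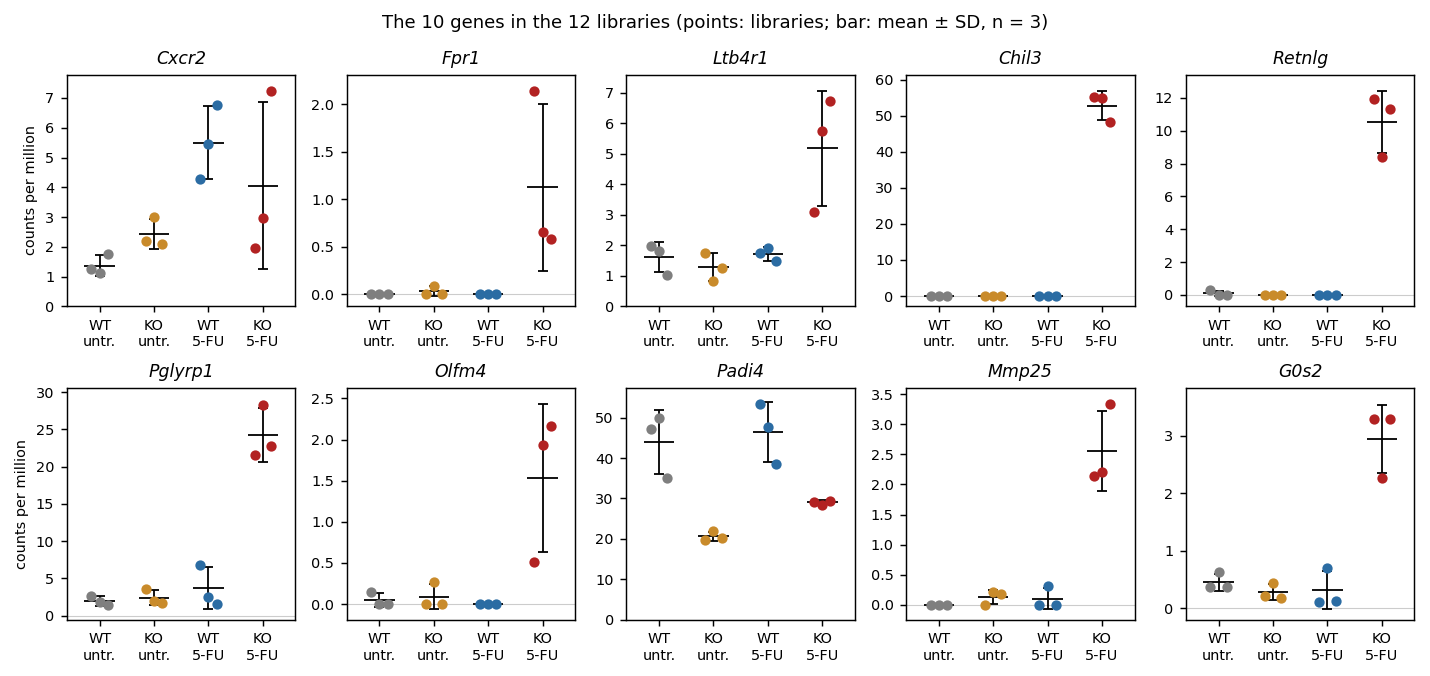
Level in CPM of each of the 10 genes in the 12 libraries, by group (WT is Tespa1+/+ and KO is Tespa1-/-, as in the other plots), each panel on its own linear axis. Points are libraries and bars give the mean ± SD (n = 3). Chil3 stood at 48.2 to 55.3 CPM in the 3 Tespa1-/- libraries after 5-FU and at 0.115 CPM or less elsewhere, while Padi4 had its highest values in the Tespa1+/+ groups.

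Of the receptors, Ltb4r1, which binds leukotriene B4, rose in Tespa1-/- LSKs after 5-FU. It was at 3.08, 5.74 and 6.71 CPM in Tespa1-/- and at 1.75, 1.92 and 1.48 CPM in Tespa1+/+. Each Tespa1-/- library was above each Tespa1+/+ library, and the lowest of them was the first. By the group means it was 3.01-fold higher, a log2 fold change of 1.59 ± 0.36 (SE, 3 against 3 libraries, adjusted p = 0.019). The Ltb4r1 call was lost in 4 of 6 fits that each left out 1 library, with an adjusted p of 0.0521 without the first and 0.0646 without the third Tespa1+/+ library, and 0.0689 without the second and 0.0787 without the third Tespa1-/- library.

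Fpr1, the receptor for formylated peptides, had 0 counts in all 3 Tespa1+/+ libraries after 5-FU and 59, 17 and 13 counts in Tespa1-/-. The first Tespa1-/- library held most of these reads, and the groups did not overlap. At 1.13 ± 0.879 CPM (SD, n = 3) in Tespa1-/-, Fpr1 was at least 9.13-fold higher than the detection limit of Tespa1+/+ (adjusted p = 0.0143). Without that first library the adjusted p was 0.087 and Fpr1 was at least 5.02-fold higher.

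Cxcr2, the receptor for the neutrophil chemokines that carry the ELR motif, went another way. It was at 4.28, 5.47 and 6.75 CPM in Tespa1+/+ after 5-FU and at 1.96, 2.97 and 7.25 CPM in Tespa1-/-. The third Tespa1-/- library lay above and the other two below all Tespa1+/+ libraries, so the groups overlapped. The log2 fold change was -0.44 ± 0.45 (SE, adjusted p = 0.595), and without the third Tespa1-/- library it was -1.15 (adjusted p = 0.0938). Cxcr2 was the gene that 5-FU raised in Tespa1+/+ LSKs. Untreated Tespa1+/+ libraries held 1.24, 1.11 and 1.76 CPM, all below the treated ones, a log2 fold change of 2.02 ± 0.35 (SE, adjusted p = 0.00765) that passed the threshold in every fit run, including the 6 that left out 1 library. Of the 4 genes that passed the filter in that comparison it was the 1 called and the 1 without overlap, against 4.43% called (2.74% higher and 1.69% lower) and 28.7% without overlap (13.2% higher) among 17002 genes. In Tespa1-/- the same comparison gave 0.72 ± 0.46 (SE, adjusted p = 0.33), from 2.2, 3.01 and 2.1 CPM untreated, and 0.01 (adjusted p = 0.987) without the third treated library.

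Among the secreted proteins, Chil3 reached the highest level per length. Chil3 encodes a chitinase-like lectin made by neutrophils and macrophages, also called Ym1. It had 1525, 1424 and 1071 counts in Tespa1-/- after 5-FU, against 0, 3 and 0 in Tespa1+/+ and 0 in all 6 untreated libraries. No other group came near the treated Tespa1-/- libraries, and the pooled counts of the 2 genotypes after 5-FU gave a ratio of 1345 with a 95% exact counting interval of 460 to 6523 (adjusted p = 5.8e-07). The ratio was 890 without the first Tespa1+/+ library, and without the second, which held the 3 Chil3 counts, the gene was at least 428-fold higher. Against untreated Tespa1-/- LSKs, Chil3 was at least 397-fold higher (adjusted p = 1.05e-06). Chil4, a near-identical copy, had at most 5 counts in any library, and how reads shared between the copies were assigned is not given in the sources used here.

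Retnlg, a resistin-like peptide of neutrophils, followed the same pattern at a lower count. It had 328, 218 and 252 counts in Tespa1-/- after 5-FU and 0 in each Tespa1+/+ library after 5-FU. Among the untreated libraries only the first Tespa1+/+ library held any Retnlg reads, 8 counts. The gene was at least 85.4-fold higher in Tespa1-/- than in Tespa1+/+ after 5-FU (adjusted p = 4.21e-05) and at least 79.3-fold higher than in untreated Tespa1-/- (adjusted p = 3.07e-05).

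Pglyrp1, a granule protein that binds bacterial peptidoglycan, was measurable in every library. After 5-FU it was at 21.5, 28.3 and 22.8 CPM in Tespa1-/- and at 6.84, 2.5 and 1.56 CPM in Tespa1+/+. The first Tespa1+/+ library was the highest of its group but stayed below all Tespa1-/- libraries. Pglyrp1 was 6.66-fold higher by the group means, a log2 fold change of 2.73 ± 0.45 (SE, adjusted p = 0.00392), and it was 3.57 without that first library.

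Olfm4, an olfactomedin protein that marks a subset of neutrophils, was lower in level. It had 14, 50 and 48 counts in Tespa1-/- after 5-FU and none in Tespa1+/+, where it was listed at 0 in each library. The first Tespa1-/- library was the lowest but still above Tespa1+/+. Olfm4 was at least 12.4-fold higher (adjusted p = 0.00863). Against untreated Tespa1-/-, where 1 library had 6 counts, its log2 fold change was 4.03 ± 1.12 (SE, adjusted p = 0.0356), against a mean of 0.0887 CPM that is under the level of 3 counts in a library. Without the first or the third untreated library the log2 value was 3.47, and without the second, the one with Olfm4 reads, the gene was at least 11.6-fold higher. The call was lost without the second or the third treated and without the first or the third untreated library (adjusted p up to 0.107), with all 12 libraries in 1 fit (0.106) and without the filter (0.051).

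Of the enzymes, Padi4 was the gene that fell. Padi4 converts arginine to citrulline in histones and takes part in the release of neutrophil extracellular traps. It was at 29.2, 28.4 and 29.4 CPM in Tespa1-/- after 5-FU and at 53.3, 47.7 and 38.5 CPM in Tespa1+/+. All Tespa1-/- libraries lay below all Tespa1+/+ libraries, and they differed from each other by less than counting error alone gives, with a coefficient of variation of 1.77% where counting gives 3.7%. The log2 fold change was -0.68 ± 0.13 (SE, adjusted p = 0.00846). It was -0.57 without the first Tespa1+/+ library, below the fold threshold, with an adjusted p of 0.0311.

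Padi4 was already lower in untreated Tespa1-/- LSKs, the 1 gene called there. Untreated Tespa1-/- libraries held 19.8, 21.9 and 20.1 CPM and untreated Tespa1+/+ libraries 47.1, 49.9 and 35.1 CPM. Chil3, Fpr1 and Mmp25 had 0 counts in those untreated Tespa1+/+ libraries, so Padi4 was read there without these genes. Which cells gave the Padi4 reads was not tested. The groups did not overlap, and the log2 fold change was -1.08 ± 0.14 (SE, adjusted p = 0.00385), called in each of the 6 fits that left out 1 library. Of the 10 genes 4 passed the filter in this comparison, 1 was called and 2 did not overlap, against 2.51% called (0.973% higher and 1.54% lower) and 25.5% without overlap (11.4% higher and 14.1% lower) among 17055 genes tested. Cxcr2 was the other gene without overlap, higher in Tespa1-/- with a log2 fold change of 0.84 ± 0.36 (SE, adjusted p = 0.267). Pglyrp1 (0.27 ± 0.41, adjusted p = 0.795) and Ltb4r1 (-0.31 ± 0.46, adjusted p = 0.782) overlapped between the untreated genotypes.

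Mmp25, a metalloprotease anchored in the neutrophil membrane, rose. It had 59, 57 and 74 counts in Tespa1-/- after 5-FU and 0, 8 and 0 counts in Tespa1+/+. The groups did not overlap. This was a log2 fold change of 4.55 ± 1.06 (SE, adjusted p = 0.0208), which rests on the 8 counts of the second Tespa1+/+ library, since the Tespa1+/+ mean of 0.103 CPM is under the level of 3 counts in a library. Without that library Mmp25 was at 0 in Tespa1+/+ and at least 20.7-fold higher in Tespa1-/-, and without the first or the third Tespa1+/+ library the log2 value was 3.99 and 4.01. The Mmp25 call was lost without any of the 3 Tespa1-/- libraries, with adjusted p of 0.0574, 0.0591 and 0.0831 for the first, the second and the third.

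G0s2, which inhibits the triglyceride lipase Pnpla2, was at 3.3, 2.27 and 3.29 CPM in Tespa1-/- after 5-FU and at 0.117, 0.693 and 0.123 CPM in Tespa1+/+. All Tespa1-/- libraries were higher, and the second Tespa1+/+ library stood above the other two. On the log2 scale the difference was 3.22 ± 0.71 (SE, adjusted p = 0.0161), with an adjusted p of 0.0603 without the first and 0.0581 without the third Tespa1-/- library. Without the second Tespa1+/+ library it was 4.57. G0s2 lies inside Lamb3 on the other strand and shares no exon base with it.

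**Figure D2:**
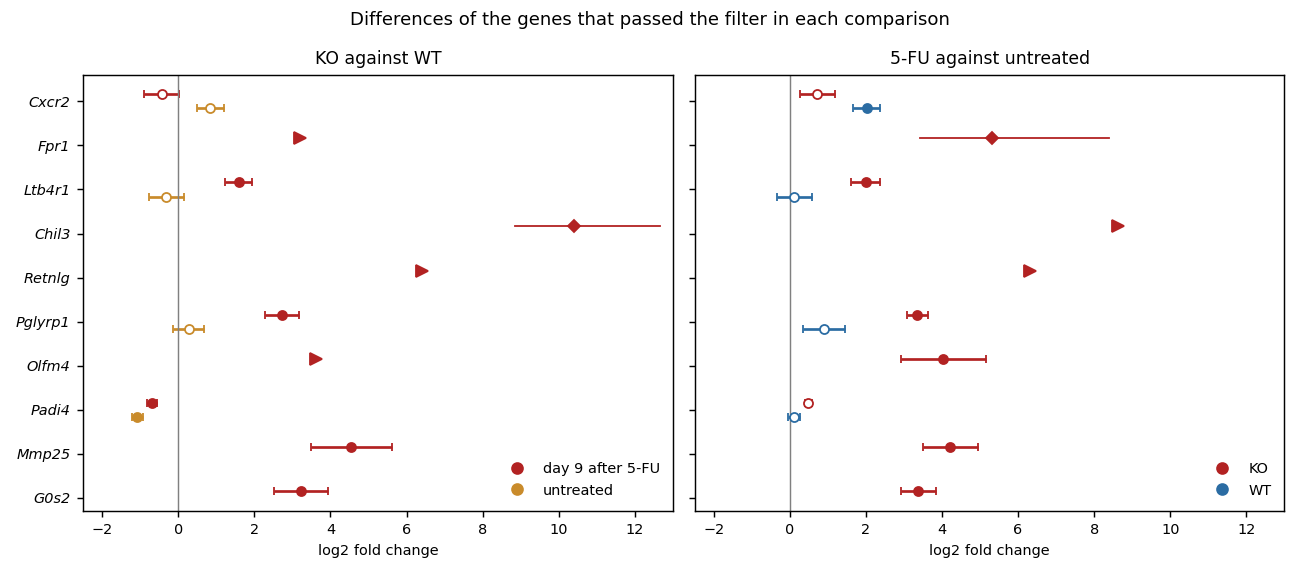
Differences on the log2 scale for the genes that passed the filter, Tespa1-/- against Tespa1+/+ on the left and 5-FU against untreated on the right. Circles are fitted log2 fold changes with their SE, filled where the gene was called; triangles are lower bounds against a group at 0; diamonds are ratios of pooled counts with their 95% counting interval. After 5-FU the Tespa1-/- against Tespa1+/+ differences run from -0.68 for Padi4 to a ratio of 1345 for Chil3.

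The comparison of 5-FU with untreated LSKs within Tespa1-/- uses the same 3 treated libraries, so it is not a separate observation. Again Retnlg, G0s2, Fpr1, Chil3, Mmp25 and Olfm4 passed the filter only through those libraries, so the counts that follow describe the genes and are no support. There 8 of the 10 genes were called, all higher, where 10.1% of the 17228 genes tested were called, 6.0% higher and 4.07% lower. Groups did not overlap in 9 genes, all higher after 5-FU, against 38.6% of all genes (19.8% higher and 18.8% lower). Pglyrp1 rose by 3.35 ± 0.28 (SE, adjusted p = 7.36e-05) on the log2 scale, G0s2 by 3.38 ± 0.47 (adjusted p = 0.00136), Mmp25 by 4.22 ± 0.72 (adjusted p = 0.00406) and Ltb4r1 by 1.99 ± 0.39 (adjusted p = 0.00746). Fpr1 had 2 counts in untreated Tespa1-/-, and its ratio of pooled counts was 40.1 with a 95% exact counting interval of 10.8 to 336 (adjusted p = 0.014). Without the first treated library the ratio was 21.2, without the first or the third untreated library 26.7 and 26.6, and without the second untreated library, which held both counts, Fpr1 was at least 8.55-fold higher. Its adjusted p went up to 0.0624 when 1 library was left out, and the Fpr1 call was lost without the first treated library and without either the first or the third untreated library, and with all 12 libraries in 1 fit (0.0509). Padi4 passed the adjusted p (0.00921) with a log2 fold change of 0.49 ± 0.1, which is under the fold threshold.

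In Tespa1+/+ LSKs, 5-FU moved none of the other genes that passed the filter past the threshold. The log2 fold change there was 0.1 ± 0.16 for Padi4 (adjusted p = 0.794), 0.11 ± 0.46 for Ltb4r1 (adjusted p = 0.926) and 0.89 ± 0.55 for Pglyrp1 (adjusted p = 0.408), which was 0.06 without the first treated library. An adjusted p above the threshold does not show that a gene was unchanged.

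Whether the response to 5-FU differed between the genotypes was tested by the interaction of genotype and 5-FU over the 12 libraries. It could be estimated for the 5 genes with counts in all 4 groups. Pglyrp1 rose more in Tespa1-/- by 2.48 ± 0.65 on the log2 scale (SE, adjusted p = 0.0447) and G0s2 by 3.89 ± 1.0 (adjusted p = 0.0414). Ltb4r1 gave 1.9 ± 0.55 (adjusted p = 0.0689), Cxcr2 -1.28 ± 0.6 (adjusted p = 0.276) and Padi4 0.4 ± 0.2 (adjusted p = 0.294), and none of these passed. The fit also called Retnlg (adjusted p = 0.00533), so that 3 of 10 genes were called, all higher, against 3.21% of the 18696 genes tested (1.66% higher and 1.55% lower). Retnlg and G0s2 reached 10 counts in every library in treated Tespa1-/- only, so this count is no support either. Retnlg had reads before treatment in 1 library only, and without that library, the first untreated Tespa1+/+, its adjusted p was 1. Pglyrp1 lost its call in 9 of the 12 fits that left out 1 library, with an adjusted p of up to 0.114 without the second untreated Tespa1-/- library, and G0s2 lost its call in 11 of 12. The Pglyrp1 value was 3.3 without the first treated Tespa1+/+ library, and the G0s2 value was 5.22 without the second. The Pglyrp1 call was also lost without TMM (adjusted p = 0.0506) and the G0s2 call without the filter (0.062), while DESeq2 also called Ltb4r1 (0.0373) and Chil3 (3.52e-06), the latter with no counts in either untreated group. The opposite difference in Cxcr2 became -2.01 (adjusted p = 0.0424) without the third treated Tespa1-/- library. For Chil3, Fpr1, Mmp25 and Olfm4, groups with no count left the interaction without an estimate.

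Per length, in the deposited FPKM values, the order of the 10 genes changed between the groups. Padi4 was first in the 3 other groups, at 7.39 ± 1.31 FPKM (SD, n = 3) in untreated Tespa1+/+, 3.52 ± 0.204 in untreated Tespa1-/- and 8.15 ± 1.28 in Tespa1+/+ after 5-FU, and its range did not overlap that of the next gene. In Tespa1-/- after 5-FU it came after 3 others at 4.99 ± 0.0971 FPKM, below Chil3 at 25.5 ± 1.9, Retnlg at 17.4 ± 3.13 and Pglyrp1 at 9.47 ± 1.4, and no neighbours among these 4 overlapped. Ltb4r1 (3.73 ± 1.35 FPKM) and G0s2 (3.4 ± 0.685 FPKM) overlapped each other, as did Fpr1, Cxcr2 and Mmp25 in turn, at 0.854, 0.773 and 0.76 FPKM, and Olfm4 was last at 0.384 ± 0.224 FPKM. In Tespa1+/+ after 5-FU, Pglyrp1, Ltb4r1 and Cxcr2 followed Padi4 at 1.45, 1.26 and 1.07 FPKM with overlapping ranges. The summed FPKM of the 10 genes was 65.2 to 68.7 in Tespa1-/- after 5-FU, against 9.95 to 14.3 in Tespa1+/+ after 5-FU, 7.94 to 11.3 in untreated Tespa1+/+ and 5.6 to 6.67 in untreated Tespa1-/-.

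**Figure D3:**
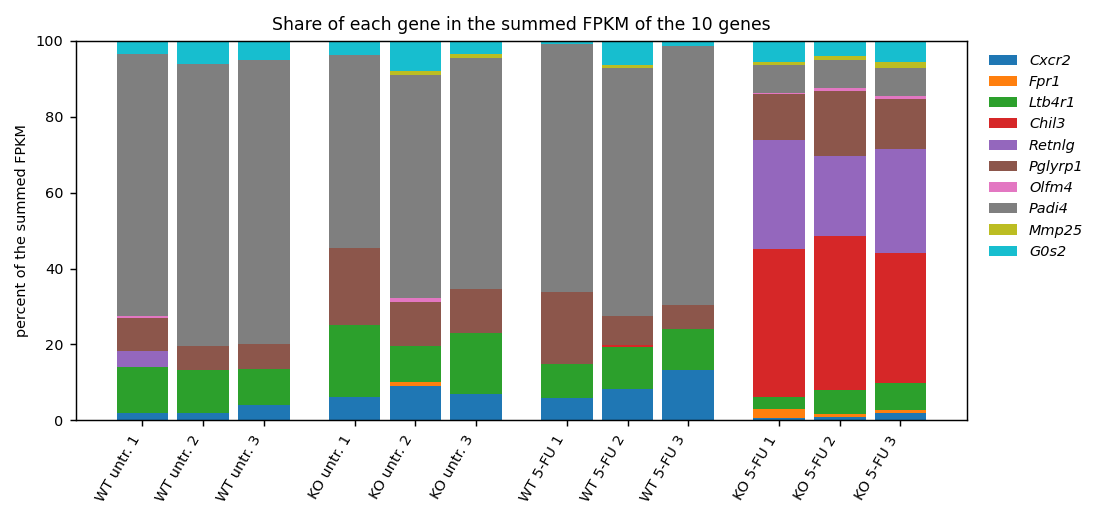
Percent of the summed FPKM of the 10 genes that each gene makes up, 1 stacked bar per library. Padi4 makes up 50.8% to 74.6% in the 9 libraries of the other groups and 7.32% to 7.48% in Tespa1-/- after 5-FU, where Chil3 makes up 34.3% to 40.6% and Retnlg 21.2% to 28.6%.

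The 3 treated Tespa1-/- libraries were close to each other in some genes and apart in others. The coefficient of variation of CPM was 7.53% for Chil3 and 17.9% for Retnlg, where counting alone gives 2.73% and 6.13%. It was 78.0% for Fpr1, 69.2% for Cxcr2 and 58.4% for Olfm4, where counting alone gives 18.4%, 10.1% and 16.4%. The first of these libraries was the highest for Fpr1 and the lowest for Cxcr2, Ltb4r1 and Olfm4. The third was the highest for Cxcr2, Ltb4r1 and Olfm4 and the lowest for Fpr1. Cxcr2, Ltb4r1 and Olfm4 therefore ranked the 3 libraries in 1 order and Fpr1 in the reverse order.

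The 250 bases before the transcription start were read for all 10 genes from RefSeq (GRCm38.p6), since 8 of the genes rose together, and were searched on both strands for GAGGAA, the core bound by PU.1, and TTGCNNAA, a site of C/EBP proteins. PU.1 and several C/EBP proteins are transcription factors of myeloid cells. The PU.1 letters occurred before 5 of the 10 genes (Cxcr2, Ltb4r1, Pglyrp1, Mmp25 and Olfm4), against 23.3% of 32851 such windows, and the C/EBP letters before 1 (Retnlg), against 9.56%. Padi4, Chil3, G0s2 and Fpr1 had neither. Cxcr2, with a PU.1 match, was not among the genes that rose. The RefSeq starts used for Pglyrp1 and Olfm4 lie inside the gene spans given above. The Pglyrp1 window is chr7:18884440-18884689 and the Olfm4 window chr14:80000052-80000301. The windows of Chil3 and Retnlg are shown as those of the 2 genes with the highest FPKM after 5-FU in Tespa1-/-, and those of Ltb4r1 and Mmp25 as examples of a match on either strand, 5′ to 3′ on the strand of the gene with matched letters in capitals. They lie at chr3:106167565-106167814 (minus strand), chr16:48872358-48872607 (plus), chr14:55765712-55765961 (plus) and chr17:23645270-23645519 (minus). A match describes letters only.
Chil3: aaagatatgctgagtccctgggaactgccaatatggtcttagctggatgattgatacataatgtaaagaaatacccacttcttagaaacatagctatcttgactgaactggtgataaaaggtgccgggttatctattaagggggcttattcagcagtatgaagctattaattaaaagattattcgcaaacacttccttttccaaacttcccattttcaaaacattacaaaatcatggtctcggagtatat
Retnlg: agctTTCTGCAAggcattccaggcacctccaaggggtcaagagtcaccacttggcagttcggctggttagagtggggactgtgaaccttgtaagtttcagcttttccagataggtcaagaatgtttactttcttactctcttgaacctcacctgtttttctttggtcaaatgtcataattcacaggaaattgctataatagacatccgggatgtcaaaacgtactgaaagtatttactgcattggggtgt
Ltb4r1: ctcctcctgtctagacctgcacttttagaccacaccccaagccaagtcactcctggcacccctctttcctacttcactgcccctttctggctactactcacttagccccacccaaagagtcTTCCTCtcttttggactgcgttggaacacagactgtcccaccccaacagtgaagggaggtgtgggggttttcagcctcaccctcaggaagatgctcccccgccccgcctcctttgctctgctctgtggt
Mmp25: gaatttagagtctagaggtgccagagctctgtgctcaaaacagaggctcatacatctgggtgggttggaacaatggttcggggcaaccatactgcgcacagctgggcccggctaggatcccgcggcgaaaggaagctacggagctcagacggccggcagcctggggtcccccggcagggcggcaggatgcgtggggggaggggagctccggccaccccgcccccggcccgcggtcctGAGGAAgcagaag

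A list of 46 relatives and partners of the 10 genes, also chosen with earlier results of these data known, was followed in the same fits. After 5-FU, 23 passed the filter (4 of them with 10 counts in every library in treated Tespa1-/- only), 8 were higher and 1 lower in Tespa1-/-, against 3.95% and 3.03% of all genes, with a median log2 fold change of 0.52 against -0.01 over all genes tested. On the leukotriene path, Alox5, which starts leukotriene synthesis, rose by 1.29 ± 0.18 (SE, adjusted p = 0.00156) and Lta4h, which makes leukotriene B4, by 0.72 ± 0.06 (adjusted p = 9.33e-05), while Alox5ap gave 0.24 ± 0.14 (adjusted p = 0.336) and the second receptor Ltb4r2 -0.27 ± 0.48 (adjusted p = 0.783). Anxa1, a ligand of formyl peptide receptors, rose from 44.9 to 50.4 CPM in Tespa1+/+ to 121 to 129 CPM in Tespa1-/- (log2 fold change 1.41 ± 0.08). Fpr2, the sister receptor of Fpr1, had 39, 41 and 44 counts in Tespa1-/- and 0, 7 and 0 in Tespa1+/+ (adjusted p = 0.0401), a call lost in 5 of 6 fits that left out 1 library.

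Relatives did not all go with the 10 genes. Pglyrp2, an amidase of the Pglyrp1 family, fell from 27.9 to 37.3 CPM in Tespa1+/+ to 13.5 to 15.5 CPM in Tespa1-/- after 5-FU (log2 fold change -1.16 ± 0.15, adjusted p = 0.00115), while Pglyrp1 rose. Padi2 was called lower in untreated Tespa1-/-, by -0.78 ± 0.08 on the log2 scale (adjusted p = 0.00113), and gave -0.42 ± 0.12 (adjusted p = 0.0562) after 5-FU, where the genotypes did not overlap either. In Tespa1+/+, 5-FU lowered Padi2 from 52.1 to 54.1 CPM to 30.1 to 35.0 CPM (adjusted p = 0.00294). Chil1 rose by 4.07 ± 1.06 (adjusted p = 0.0344) and Padi3 by 3.64 ± 0.96 (adjusted p = 0.036), both from few counts, and their calls were lost in 5 and 4 of 6 such fits. Abhd5, the co-activator of Pnpla2, rose by 1.06 ± 0.18 (adjusted p = 0.00431), and Pnpla2 gave -0.04 ± 0.12 (adjusted p = 0.876). The membrane metalloprotease Mmp14 rose by 1.25 ± 0.22 (adjusted p = 0.00524). Cxcl2, a ligand of Cxcr2, was at 54.5 to 57.3 CPM in untreated Tespa1-/- and 123 to 132 CPM in untreated Tespa1+/+ (log2 fold change -1.19 ± 0.06, adjusted p = 3.31e-05) and did not differ by the test after 5-FU (0.0 ± 0.19, adjusted p = 0.997). Untreated, 21 of the 46 genes passed the filter, and Cxcl2 and Padi2 were the 2 called, both lower, against 2.51% of all genes called and 1.54% lower.

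Genes of other maturation stages and cell types were measured beside the 10 genes, in lists chosen with earlier results of these data known. Counts of these lists are to be read beside the 6.98% of all genes called (3.95% higher), and some of their genes reached 10 counts in every library in treated Tespa1-/- only, so that they could pass the filter because they were high there. These were 11 of the 30 tested other late neutrophil genes, 8 of 11 secondary granule genes, 0 of 10 primary granule genes, 8 of 9 eosinophil genes, 3 of 11 erythroid genes, 3 of 15 monocyte and macrophage genes, 2 of 8 basophil and mast cell genes, 4 of 9 T and NK cell genes and 2 of 7 lineage antigen genes. Of 36 other late neutrophil genes, 30 passed the filter after 5-FU, 17 were higher in Tespa1-/- and 1 lower. The lower one was Wfdc17, which fell by 1.36 on the log2 scale (adjusted p = 0.00368). Among the abundant genes of that list, Csf3r, the receptor for G-CSF, gave a log2 fold change of -0.22 ± 0.07 (adjusted p = 0.0705) and Selplg, a selectin ligand, 0.11 ± 0.1 (adjusted p = 0.541), and neither passed the test. All 11 secondary granule genes that passed were higher. S100a9, a subunit of calprotectin, was at 309 to 325 CPM in Tespa1-/- and at 0.924 to 1.63 CPM in Tespa1+/+ (adjusted p = 4.87e-09), and Ngp at 240.0 to 261 against 0.154 to 2.53 CPM (adjusted p = 9.04e-06). Of 10 primary granule genes 8 were higher, among them Elane by 1.71 ± 0.05 (adjusted p = 1.31e-07) and Mpo by 0.73 ± 0.05 (adjusted p = 1.48e-05). Stem and progenitor markers had 0 higher and 3 lower of 7, with Flt3 at -0.89 ± 0.05 and Cd34 at -0.78 ± 0.05 on the log2 scale.

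Markers outside the neutrophil line moved as well. The eosinophil list summed to 660 to 699 CPM in Tespa1-/- after 5-FU and to 5.33 to 7.2 in Tespa1+/+ after 5-FU, 3.76 to 7.48 in untreated Tespa1+/+ and 8.51 to 9.96 in untreated Tespa1-/-, and 7 of 9 genes were higher in Tespa1-/- after 5-FU. Prg3, Ear1, Ear2 and Ear6 were at 0 in Tespa1+/+ after 5-FU, and none of the 9 was at 0 in Tespa1-/-. The erythroid list summed to 772 to 814 CPM in Tespa1-/- after 5-FU against 244 to 268 in Tespa1+/+, 150 to 172 in untreated Tespa1+/+ and 164 to 174 in untreated Tespa1-/-, with 11 of 11 genes higher and none at 0. For basophils and mast cells the sums were 211 to 281 against 173 to 207 CPM after 5-FU, with 5 of 8 genes higher and Tpsab1 at 0 in both. The monocyte and macrophage list summed to 504 to 542 against 387 to 423 CPM (3 higher and 1 lower of 15), the B cell list to 344 to 364 against 301 to 313 CPM (1 of 10 higher), the T and NK cell list to 24.9 to 33.5 against 22.6 to 27.4 CPM (1 of 9 higher, Cd3d and Cd3e at 0 in Tespa1+/+) and the megakaryocyte list to 284 to 300 against 222 to 239 CPM (1 of 10 lower). The part of these cell types in the values of the 10 genes was not tested.

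Of the antigens of the lineage gate, Itgam (CD11b) was at 64.5 to 76.4 CPM in Tespa1-/- after 5-FU and at 28.2 to 35.9 CPM in Tespa1+/+ (log2 fold change 1.13 ± 0.12, adjusted p = 0.000273), and 4 of the 7 antigen genes were higher, 2 of the 7 having reached 10 counts in every library in treated Tespa1-/- only, against 3.95% of all genes. Ly6g, which encodes a Gr-1 antigen, was at 0 in all 6 untreated libraries and not in either treated group. The gate acts on protein at the cell surface, which these libraries do not measure.

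**Figure D4:**
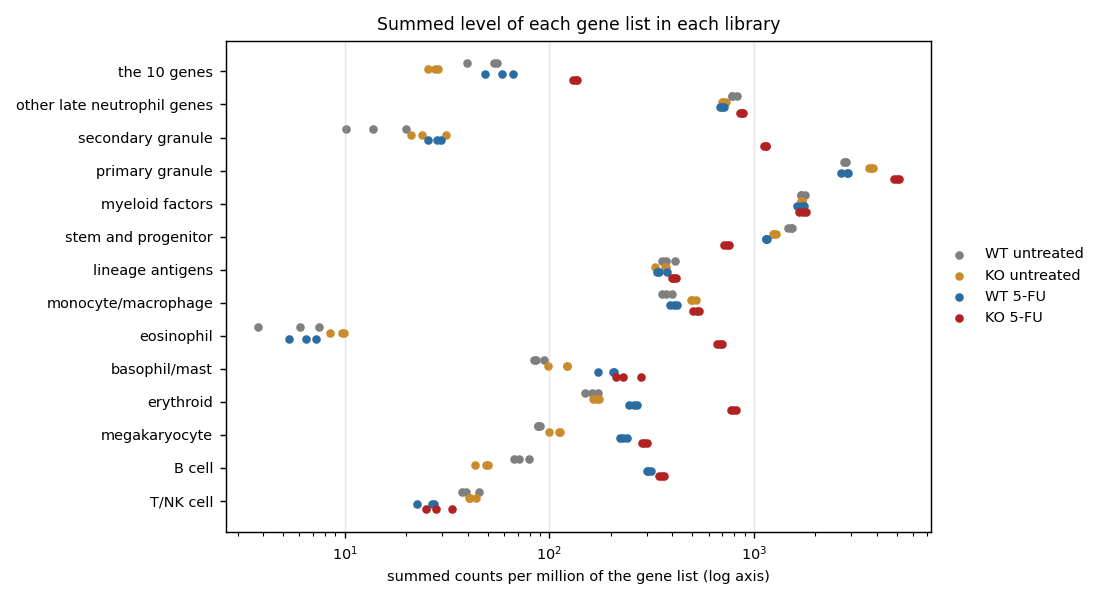
Summed CPM of each gene list in each library on a log axis, coloured by group. The secondary granule list lies at 1120 to 1140 CPM in Tespa1-/- after 5-FU and at 10.1 to 31.3 CPM in the other groups, and the 10 genes at 131 to 136 against 25.5 to 66.3 CPM.

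The 6 genes with the pattern most like the mean pattern of the 10, by the root mean square difference of centred log2(CPM + 0.5) over the 12 libraries among 14928 other genes, were Vcam1, Igha, Mcpt8, Ctse, Cpox and Syne1, at 0.2 to 0.29. They were chosen by this pattern, so their levels are a description. Vcam1 was at 13.2 to 18.7 CPM there and at 2.04 to 3.78 CPM in the other groups, and Igha at 37.7 to 41.0 against 3.8 to 8.83 CPM. Of the 10 genes, Mmp25 (0.24) and G0s2 (0.33) lay nearest to their own mean and Chil3 (1.89), Padi4 (1.2) and Cxcr2 (1.07) farthest.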

How the data were processed

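The authors deposited 1 table with raw read counts per gene for the 12 libraries, not normalized, and the FPKM values they computed from those counts. Per the labels, libraries were paired-end from poly-A RNA with a stranded kit; the submitters' processing notes name CASAVA 1.8, HISAT2, StringTie, edgeR and GRCm38 without roles, and the use of strand in counting is not given in the sources used here. Positions are those of GRCm38.

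Differences between groups were fitted to the counts by edgeR 4.0.16 (R 4.3.3): filterByExpr (minimum count 10), TMM factors, glmQLFit and glmQLFTest, with the 6 libraries of each 2-group comparison or all 12 for the interaction, and Benjamini-Hochberg adjustment over all genes tested. Adjusted p-values in the text come from this test. The SE of a log2 fold change was derived from the test, as its absolute value over the square root of the F statistic. CPM used TMM factors over 12 libraries. Against a group with no counts, the fold is the mean CPM over the highest 3-count level of that group; with 1 to 3 counts in a group, pooled counts with an exact 95% interval. FPKM served only to compare genes. Scripts were tested on simulated data. The members and gene lists were chosen with earlier results of these data known. Named are all 10 members, relatives, at most the 4 genes of highest mean FPKM of each other list, and the 6 most like the members' mean. Ly6g and the genes at 0 were named after their values were seen. Alternatives were DESeq2 1.42.0, RLE factors, no TMM, other filters and call rules, all 12 libraries in 1 fit, a replicate block and each library left out.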

Additional observations from a re-analysis of the deposited data

Results flagged for a closer look

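The difference between the genotypes in the response to 5-FU was past the threshold in the interaction test for 3 of the 10 genes, against 3.21% of all genes tested. Of the 3, Retnlg and G0s2 reached 10 counts in every library in treated Tespa1-/- only. For Pglyrp1 the adjusted p was 0.0447 and for G0s2 it was 0.0414, and both rose more in Tespa1-/- LSKs, but with 1 library removed at a time the call was lost in 9 and 11 of 12 fits. For Retnlg the adjusted p was 0.00533, with 8 counts in 1 untreated Tespa1+/+ library, none in the other untreated libraries and none in treated Tespa1+/+, so no fold change of the interaction is given. Without that library the adjusted p of Retnlg was 1. No outlier test was applied to groups of 3 libraries.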

How the results depend on the processing

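After 5-FU, Tespa1-/- against Tespa1+/+, DESeq2, RLE factors, no TMM, no filter and all 12 libraries in 1 fit each called 9 of the 10 genes, the same 9. Over all genes these fits called 1446 (DESeq2), 1198 (RLE) and 1213 (no TMM) of 17239. Without the filter it was 1053 of 31288, and with all 12 libraries 1349 of 18696. Requiring 10 counts in every library left 4 genes to test, of which 3 were called, against 1099 of all 14662 genes left. In Tespa1-/-, 5-FU against untreated, that filter left 4, of which 2 were called, against 1478 of all 14754 genes left. Without adjustment of p, untreated Tespa1-/- against Tespa1+/+ gave 2 called genes, against 1149 of all 17055 tested. The interaction then gave 5, against 1941 of all 18696. The interaction gave 5 with DESeq2 (964 of 18696 over all genes) and 1 with the strict filter (542 of 14017). It gave 0 to 3 when 1 library was left out, with 407 to 576 called over all genes. When 1 library was left out, 3 differences past no threshold changed sign: Pglyrp1 between untreated genotypes ran from -0.13 to 0.53, and under 5-FU in Tespa1+/+ Padi4 ran from -0.04 to 0.21 and Ltb4r1 from -0.12 to 0.27 (log2).

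Same-numbered libraries of different groups did not deviate together (correlations -0.0759 to 0.0258), so the numbers do not pair them. With the replicate block 8 of 10 genes were called after 5-FU, without Fpr1 (adjusted p = 0.0537). The other comparisons gave 1 (untreated genotypes), 1 (5-FU in Tespa1+/+), 8 (5-FU in Tespa1-/-) and 3 (interaction) called genes. Over all genes the block called 1010 of 17239, 256 of 17055, 578 of 17002, 1516 of 17228 and 491 of 18696 in that order.

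Over all genes, the counts called changed by over 1.5 times mainly with the call rule. Adjusted p without a fold threshold gave 2261 in place of 1204 (genotypes after 5-FU), 892 in place of 428 (untreated genotypes), 1352 in place of 753 (5-FU in Tespa1+/+), 3336 in place of 1735 (5-FU in Tespa1-/-) and 936 in place of 601 (interaction). A fold above 2 gave 635, 213, 439, 1043 and 349 in that order, and unadjusted p with a fold above 1.5 gave 2023, 1149, 1679, 2474 and 1941. The block gave 256 for untreated genotypes, DESeq2 964 for the interaction, and leaving out 1 library 216 to 411 for untreated genotypes.

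Genes near 3 counts per library, such as Fpr1, Olfm4 and Mmp25 outside treated Tespa1-/-, limit what can be said of their levels there, and 3 libraries a group limit every p.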
